A study of Mus musculus with 32 samples.

Results

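Of the 54446 genes in the count tables, 10 genes of neutrophil recruitment and neutrophil content are described here. They were chosen by name: the CXC chemokines Cxcl1, Cxcl2, Cxcl3 and Cxcl5, their receptor Cxcr2, and 5 genes whose products neutrophils or their precursors carry, S100a8, S100a9, Elane, Ngp and Lcn2. Their levels were followed in 32 RNA-seq libraries of orthotopic tumors. The tumors had been started in the liver of Balb/c mice by local injection of BNL-MEA cells, a transformed mouse liver line. The dose experiment compared vehicle (n = 4) with regorafenib, an oral multikinase inhibitor, at a low dose of 5 mg/kg/day (n = 3) and a high dose of 20 mg/kg/day (n = 3). The DC-101 experiment compared vehicle (n = 4) with low-dose regorafenib (n = 3) and with DC-101, a blocking antibody against mouse VEGFR2 (800 ug on days 1, 3 and 5, n = 3). The anti-PD1 experiment had vehicle, low-dose regorafenib, an antibody against PD1, and low-dose regorafenib combined with that antibody (n = 3 each). All mice carried the same transplanted line. The age of the mice is not given in the sources used here. The study's methods name an isotype control antibody, without saying which of these vehicle libraries, if any, it applies to.

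Neutrophils are short-lived white blood cells made in the bone marrow. The CXC chemokines of this set bind Cxcr2 on the neutrophil and guide it from blood into inflamed tissue or tumor. Granule proteins are made in sequence as the cell matures: Elane is transcribed in promyelocytes, Ngp and Lcn2 follow in later precursors, and mature neutrophils carry large amounts of S100a8 and S100a9 transcript. Several of these genes are not private to neutrophils, since hepatocytes can make Lcn2 as an acute-phase protein, and epithelial cells and macrophages can make the chemokines.

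Sequencing depth ran from 16.77 M to 27.69 M total counts (dose), from 17.94 M to 25.49 M (DC-101) and from 20.46 M to 25.34 M (anti-PD1). The tissue is labelled hepatocellular carcinoma. Afp, a fetal liver protein often made by this tumor, was nearly absent, with a median of 10.5 counts and at most 84, whereas the epithelial keratin Krt8 had a median of 1073.5 counts. The hepatocyte score, which is the mean log2 CPM of 18 hepatocyte genes, ran from 0.17 to 11.94 over the libraries. Among markers that define neutrophils, Ly6g and Cxcr1 each reached at most 12 counts in any library, while Csf3r, the G-CSF receptor, had 174 to 1957 counts. In bulk tissue, fewer cells of a type and less RNA per cell cannot be told apart. The labels do not state that each library came from its own animal, so p-values measure the spread between these samples.

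The chemokine genes lie together on chromosome 5 (GRCm38), in a stretch of 146.6 kb with 7 protein-coding genes in the order Cxcl5, Ppbp, Pf4, Cxcl3, Cxcl15, Cxcl1 and Cxcl2. All 4 are on the + strand: Cxcl5 (ENSMUSG00000029371) at 90759360 to 90761624, Cxcl3 (ENSMUSG00000029379) at 90786103 to 90789600, Cxcl1 (ENSMUSG00000029380) at 90891241 to 90893115 and Cxcl2 (ENSMUSG00000058427) at 90903871 to 90905938. Cxcr2 (ENSMUSG00000026180) is on chromosome 1 at 74153989 to 74161246, + strand. S100a8 (ENSMUSG00000056054, 90668978 to 90670035, + strand) and S100a9 (ENSMUSG00000056071, 90692632 to 90695721, - strand) are neighbors within 26.74 kb of chromosome 3. Elane (ENSMUSG00000020125) is on chromosome 10 at 79886247 to 79888215, + strand, Ngp (ENSMUSG00000032484) on chromosome 9 at 110419747 to 110423012, + strand, and Lcn2 (ENSMUSG00000026822) on chromosome 2 at 32384633 to 32388252, - strand. All 10 are protein coding, and no annotated gene overlaps any of them. Of the 50-base words in their exons, 5.84% of those of Cxcl2 and 4.24% of those of Cxcl3 also occur in another gene, for Cxcl2 in Cxcl3, as do 4.01% of those of Cxcr2 and 0.693% of those of Cxcl5, so reads from these stretches are uncertain.

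The sequences before the starts of Cxcl1, Cxcl2 and Cxcl3 are shown because the stretches share a motif. The levels of these genes varied together across the libraries, but Cxcl5, Cxcr2, S100a8 and S100a9 varied with them too, as given below. A link between the motif and the levels was not tested. Each stretch runs from 100 to 41 bases before the RefSeq transcription start (GRCm38.p6, + strand), at chr5:90891145-90891204, chr5:90903799-90903858 and chr5:90786001-90786060. Capitals mark matches, on the strand shown, to GGG and TTCC with any 3 bases between them, a form of the binding motif of NF-kB, a factor that drives many inflammatory genes.
Cxcl1: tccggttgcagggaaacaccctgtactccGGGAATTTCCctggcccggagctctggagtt
Cxcl2: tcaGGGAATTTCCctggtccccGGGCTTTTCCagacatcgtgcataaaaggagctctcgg
Cxcl3: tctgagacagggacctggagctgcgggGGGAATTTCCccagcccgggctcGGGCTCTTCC
The first capitals of each stretch are the same 10 letters, which begin 71 bases before the start of Cxcl1, 97 before that of Cxcl2 and 73 before that of Cxcl3, and each overlaps a match on the other strand that is shifted by 1 base. Cxcl1 has a further match on the other strand, 89 to 80 bases before its start. Counting both strands, this motif was found in 5.56% of 32851 promoter windows of 300 bases, and in 3 of the 9 members that have a window, which are these 3. Cxcl5 is the member without a window. The exact 10 letters, chosen after the sequences were seen, were found in 0.0883% of the windows. TTGCNNAA, a form of the motif of the C/EBP factors of granulocyte development, was found in 10.8% of the windows on either strand and in those of S100a9, Ngp and Lcn2. A match is a description of letters and not a measurement of binding.

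Per kilobase of annotated exon, the median level in the 11 vehicle libraries was highest for S100a9 (41.4 CPM per kb), a calcium-binding protein of the neutrophil cytoplasm, followed by Lcn2 (33.0), which binds bacterial siderophores. S100a8, the partner of S100a9 in calprotectin, had 17.4 CPM per kb, Cxcl5 15.4, Cxcl1 5.59, Cxcl2 2.04 and Cxcr2 0.905. The lowest were Ngp (0.716), a secondary granule protein, Elane (0.161), the serine protease neutrophil elastase, and Cxcl3 (0.0942). Neighbors in this order often changed places. S100a9 was above Lcn2 in 21 of 32 libraries and Cxcr2 above Ngp in 20, whereas Cxcl1 was above Cxcl2 in 29 and Ngp above Elane in 28. The count tables of the 3 experiments were scaled separately, and levels set across them carry that limit.

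The vehicle libraries alone spanned wide ranges. In the DC-101 experiment, Cxcl2, a chemokine made early in inflammation, had 90.3, 4.90, 3.16 and 1.03 CPM in the 4 vehicle libraries, an 87.4-fold range. In the anti-PD1 experiment it had 3.29, 4.21 and 56.6 CPM, and in the dose experiment 2.51, 22.1, 0.807 and 7.38 CPM. A single library per experiment, vehicle replicate 2 of the dose experiment, replicate 1 of the DC-101 experiment and replicate 3 of the anti-PD1 experiment, was the highest vehicle library for all 4 chemokines, Cxcr2, S100a8 and S100a9.

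**Figure D1:**
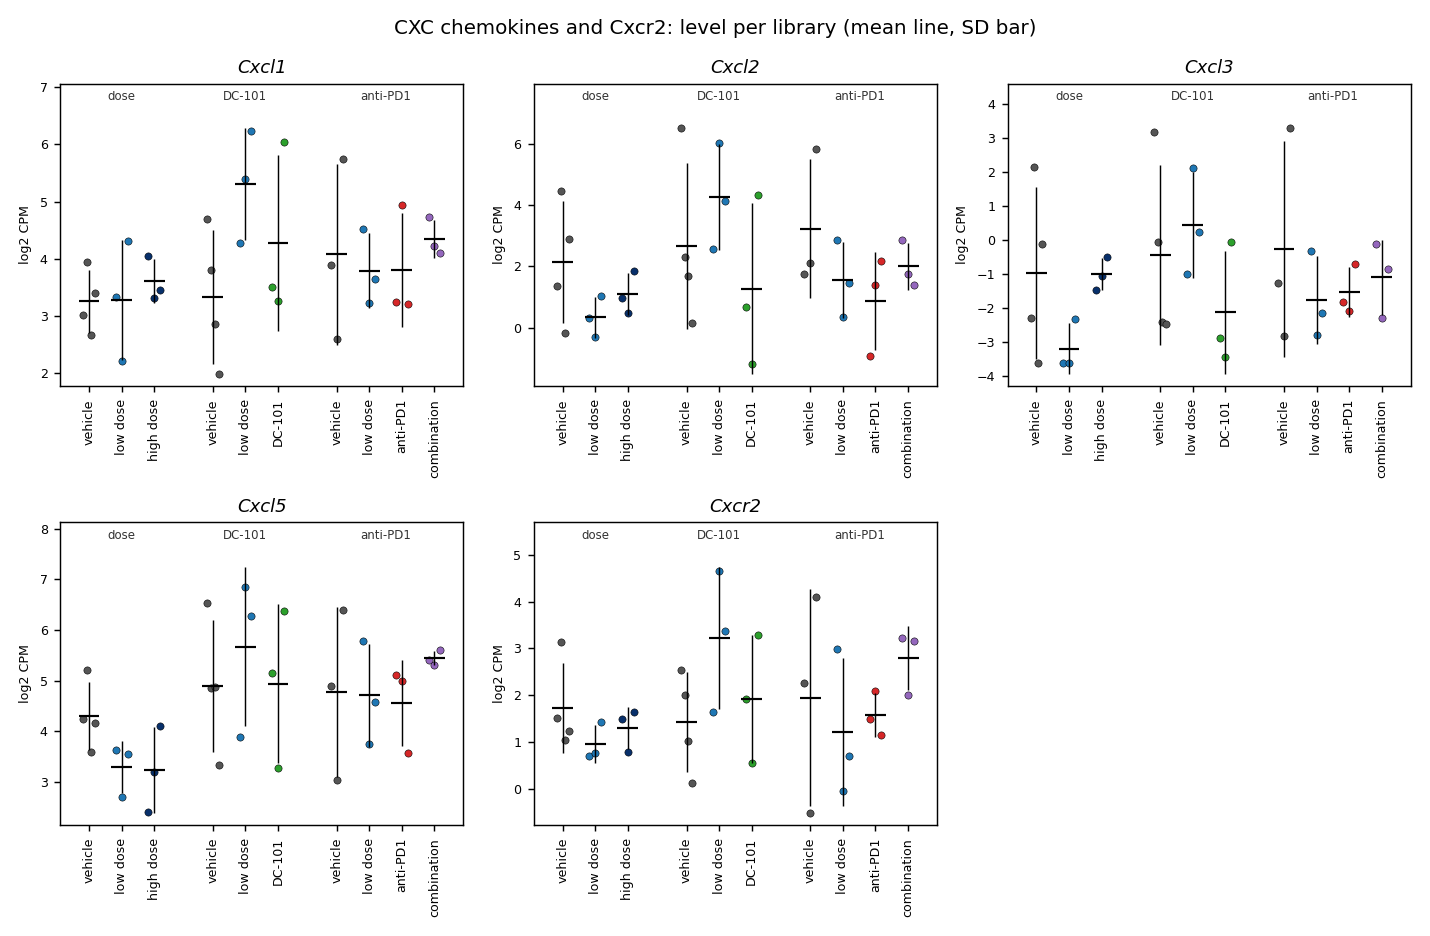
Level of Cxcl1, Cxcl2, Cxcl3, Cxcl5 and Cxcr2 in each of the 32 libraries, on the y axis as log2 CPM (prior count 2) and on the x axis by treatment within each of the 3 experiments. Points are libraries, horizontal lines group means and vertical bars SD. Cxcl2 in the vehicle libraries of the DC-101 experiment ran from 1.03 to 90.3 CPM, and no gene had all treated libraries of a group outside its vehicle range.

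Low-dose regorafenib was first compared with vehicle in the dose experiment. No member passed an adjusted p of 0.05 (edgeR quasi-likelihood F-test over all genes with Benjamini-Hochberg adjustment), where 0% of 16525 genes passed. By DESeq2 and by limma-voom 0 members passed as well. An unadjusted p under 0.05 was found for 4 of 10 members, beside 4.94% of all genes, and all 4 had lower values at the low dose (2.53% of all genes). This count depended on the tool, at 5 of 10 by DESeq2, 0 of 10 by limma-voom, 0 of 10 with a replicate block and 1 of 8 with the 2 groups alone. The median log2 change of the members was -1.06, with 3 positive and 7 negative, beside a median of 0.0012 over all genes. Other cell types moved with this group: the macrophage score was 7.35 to 7.45 at the low dose and 6.31 to 6.92 in vehicle, without overlap, with 10 of 10 markers positive and 6 at an unadjusted p under 0.05. The T cell score was 0.96 to 1.46 against 0.15 to 1.05, with 6 of 6 markers positive. The part of macrophage and T cell transcripts in the members' values was not tested. The hepatocyte score was 5.86 to 9.54 against 4.42 to 7.58, with overlap, and 18 of 18 of its markers were positive (median log2 change 1.53). Adjusted for it, Cxcl1 had -0.21 and Elane -0.13, which leaves Ngp, at 0.44, as the 1 positive member.

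Cxcl2 had 1.15, 0.733 and 1.96 CPM at the low dose, against the vehicle values given above (log2 change -2.67, SE 1.01, adjusted p = 0.978). Only replicate 2 lay below the vehicle range. Cxcl3, a close relative of Cxcl2, had 0, 0 and 3 counts against 3, 76, 0 and 21 in vehicle, a ratio of 0.0342 with a 95% exact interval of 0.0069 to 0.103 that covers counting error only. Vehicle replicate 2 held 76 of those counts, and the fitted log2 change of -4.95 (SE 1.85, adjusted p = 0.965) was -2.94 without it. S100a8 had 2.52, 3.10 and 5.61 CPM against 7.69, 35.3, 3.93 and 6.63 (log2 change -1.83, SE 0.79, adjusted p = 0.989). S100a9 had 5.24, 6.28 and 13.8 CPM against 17.0, 74.6, 11.3 and 14.0 (log2 change -1.79, SE 0.75, adjusted p = 0.989). For both S100 genes replicates 1 and 2 were below the vehicle range and replicate 3 was inside it. Vehicle replicate 2 set much of these sizes: without it the log2 change was -1.47 for Cxcl2, -0.70 for S100a8 and -0.74 for S100a9. The other members overlapped vehicle too, with log2 changes of -1.08 for Cxcl5, -1.03 for Cxcr2, -0.27 for Lcn2, 0.19 for Cxcl1, 0.72 for Elane and 0.79 for Ngp.

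High-dose regorafenib was compared with the same vehicle libraries, so both doses share their control. At the adjusted threshold 0 members passed, where 15.6% of all genes did, and 2 of 10 had an unadjusted p under 0.05, beside 40.1% of all genes. Both were granule genes with higher values at the high dose (23.1% of all genes). Elane had 33, 15 and 5 counts (1.87, 0.550 and 0.196 CPM) against 4, 1, 3 and 4 in vehicle (0.165, 0.0571, 0.110 and 0.159 CPM). All 3 high-dose libraries were above all 4 vehicle libraries, as was so for 11.8% of all genes (log2 change 2.71, SE 0.83, adjusted p = 0.0525). Ngp had 8.88, 3.85 and 0.706 CPM against 1.40, 0.228, 0.330 and 0.516 (log2 change 2.83, SE 0.86, adjusted p = 0.0520). High-dose replicate 3 was inside the vehicle range. The call of both genes depended on the setting. For Elane and Ngp the adjusted p was 0.0150 and 0.00509 by DESeq2, and 0.0138 and 0.0113 by edgeR without high-dose replicate 3. That replicate was the lowest of its group for both genes. Replicate 1 was the highest, at 1.87 and 8.88 CPM, so the sizes lean on it. By limma-voom it was 0.129 and 0.124, with a replicate block 0.201 and 0.200, and with no filter on low counts 0.0918 and 0.0861.

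The hepatocyte score was 6.6 to 11.94 at the high dose against 4.42 to 7.58 in vehicle. Although these ranges overlapped, 18 of 18 hepatocyte markers were positive, with a median log2 change of 3.97, and 3 rose. Of 10 macrophage markers 7 fell (median log2 change -1.35). The score of promyelocyte and bone marrow genes was -0.48 to 2.63 against -1.51 to -0.56, without overlap. The score of carcinoma and epithelium markers was 3.85 to 5.01 against 1.84 to 2.87 and that of T cell markers 1.23 to 2.76 against 0.15 to 1.05, both without overlap, with 3 of 7 and 3 of 6 markers higher past the threshold. Counts of mitochondrial genes took 5.37, 2.86 and 2.14% of high-dose replicates 1, 2 and 3, the same order as their Elane and Ngp values, and 1.84 to 2.31% of the vehicle libraries. The part of the mitochondrial share and of macrophage, carcinoma, epithelium and T cell transcripts in the members' values was not tested. Adjusted for the hepatocyte score in the fit, the log2 change was 0.62 for Elane (adjusted p = 0.706) and 1.73 for Ngp (adjusted p = 0.513). In the same fit Lcn2 had 0.019 in place of 0.77. The S100 genes moved farther from 0, to -1.585 in place of -0.65 for S100a8 and -1.855 in place of -0.84 for S100a9.

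Of the 4 chemokines, 3 had negative values at the high dose and Cxcl1 had a positive one. Cxcl5, also known as LIX, had 5.26, 9.05 and 17.1 CPM against 18.8, 37.0, 12.1 and 17.9 (log2 change -1.03, SE 0.49, adjusted p = 0.145). Replicates 1 and 2 were below the vehicle range, and without replicate 3 Cxcl5 passed (log2 change -1.61, adjusted p = 0.0347). Log2 changes of the others were -1.87 for Cxcl2, -1.54 for Cxcl3, -0.67 for Cxcr2, -0.65 for S100a8, -0.84 for S100a9, 0.31 for Cxcl1 and 0.77 for Lcn2, and their groups overlapped. Vehicle replicate 2 decided the sign of several: without it the values were 0.50 for Cxcl3, 0.08 for Cxcr2, 0.47 for S100a8 and 0.19 for S100a9.

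**Figure D2:**
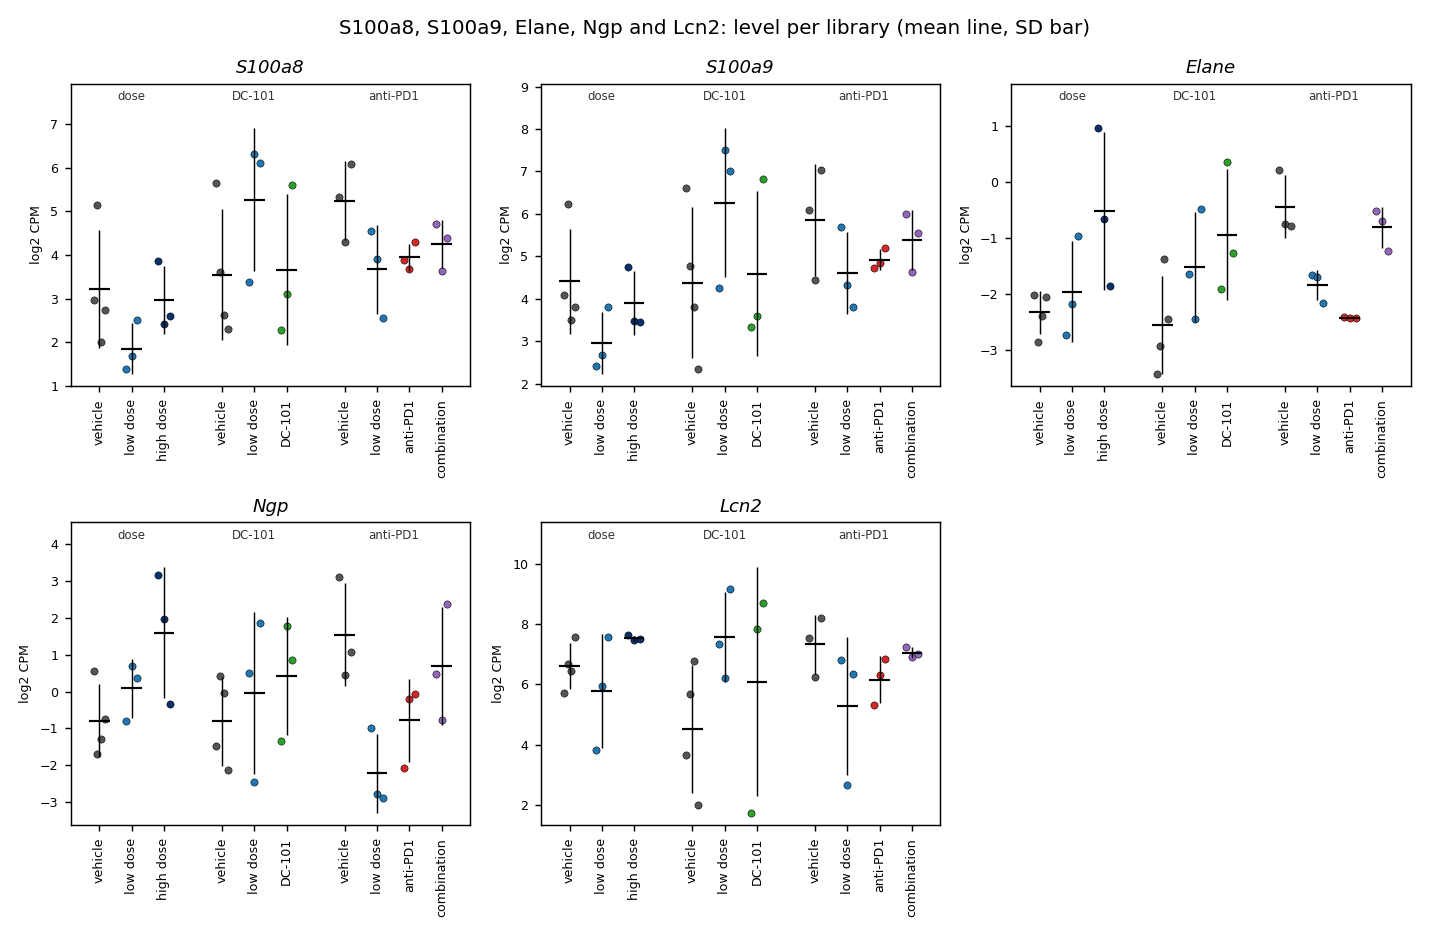
Level of S100a8, S100a9, Elane, Ngp and Lcn2 in each of the 32 libraries, on the y axis as log2 CPM (prior count 2) and on the x axis by treatment within each experiment. Points are libraries, horizontal lines group means and vertical bars SD. Elane at the high dose (0.196 to 1.87 CPM) lies above the 4 vehicle libraries of the dose experiment, and Elane with anti-PD1 (2 counts in each library) lies below the 3 vehicle libraries of that experiment.

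In the DC-101 experiment, 8 of the 9 members tested had a positive log2 change at the low dose, with a median of 1.53 beside 0.0092 over all genes. No member passed, where 0.0248% of 16138 genes did, and 0 passed by DESeq2 or limma-voom. An unadjusted p under 0.05 was found for 1 of 9, beside 17.1% of all genes (7.58% with higher values). The 1 was Cxcr2, with 3.02, 25.2 and 10.3 CPM against 5.74, 3.92, 1.94 and 0.989 in vehicle (log2 change 2.02, SE 0.86, adjusted p = 0.280). Replicates 2 and 3 were above the vehicle range and replicate 1 was inside it. Cxcl1, the mouse chemokine KC, had 19.4, 42.2 and 74.8 CPM against 25.8, 13.9, 7.15 and 3.87 (log2 change 1.84, SE 0.86, adjusted p = 0.316). Again replicates 2 and 3 alone exceeded vehicle. T cell markers were positive in 6 of 6 (median log2 change 0.57, 0 at an unadjusted p under 0.05), and their part was not tested.

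Lcn2 had 160.1, 74.0 and 567 CPM against 12.4, 51.6, 109 and 3.87 (log2 change 2.59, SE 1.46, adjusted p = 0.379), with replicate 2 inside the vehicle range. The hepatocyte score was 5.62 to 8.86 at the low dose and 0.17 to 6.58 in vehicle, and with that score in the fit the log2 change of Lcn2 was -1.02. S100a8 had 10.3, 79.3 and 68.9 CPM against 50.1, 12.1, 6.08 and 4.85 (log2 change 1.53, SE 1.10, adjusted p = 0.483), and S100a9 had a log2 change of 1.62. For both genes replicates 2 and 3 were above the vehicle range and replicate 1 was inside it. Vehicle replicate 1 set the values of Cxcl2 (log2 change 0.25) and Cxcl3 (-0.38), which were 3.28 and 2.4 without it. The same library held the highest vehicle values of S100a8 (50.1 CPM) and S100a9 (97.9 CPM). Elane was too low to test, with 5, 2 and 11 counts against 0, 1, 6 and 2, while Ngp had a log2 change of 1.36, which was -1.08 with the hepatocyte score in the fit, and Cxcl5 one of 0.78.

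DC-101 was compared with the same vehicle libraries. No member passed, where 0% of all genes did, and 0 of 9 had an unadjusted p under 0.05, beside 13.2% of all genes. By DESeq2 and limma-voom the counts were also 0. The group itself was split. Lcn2 had 3.24, 227 and 417 CPM, which is below the lowest and above the highest vehicle value (log2 change 2.28, SE 1.45, adjusted p = 0.501). S100a9 had 10.1, 12 and 113 CPM against 97.9, 27.1, 13.9 and 4.99 (log2 change 0.32, SE 1.21, adjusted p = 0.934). DC-101 replicate 3 was the highest of its group for the 4 chemokines, Cxcr2, both S100 genes and Lcn2, and replicate 2 for Elane (4, 27 and 6 counts) and Ngp (7, 75 and 32 counts). Log2 changes of the remaining members were 1.19 for Cxcl1, -1.78 for Cxcl2, -3.09 for Cxcl3, 0.09 for Cxcl5, 0.64 for Cxcr2, 0.18 for S100a8 and 1.48 for Ngp. The hepatocyte score was 1.66 to 9.60 against 0.17 to 6.58 in vehicle, with 1.66 in the replicate lowest for Lcn2. With that score in the fit, Lcn2 had -1.78 and Ngp -0.61. T cell markers were negative in 6 of 6 (median log2 change -0.45, 0 at an unadjusted p under 0.05), and their part was not tested. Leaving out 1 library turned the sign of several members. Without DC-101 replicate 3 the values were -0.28 for Cxcl1, -0.83 for Cxcl5, -0.32 for Cxcr2, -1.47 for S100a8 and -1.71 for S100a9, and without vehicle replicate 1 Cxcl2 had 1.25. With a replicate block Cxcl5 had -0.43, S100a8 -0.78 and S100a9 -0.85.

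In the anti-PD1 experiment, all 10 members had a negative log2 change at the low dose, with a median of -1.5 beside 0.035 over all genes. No member passed, where 0% of 16615 genes did, and 5 of 10 had an unadjusted p under 0.05, beside 11.8% of all genes (6.95% with lower values). Ngp had 0.414, 0.0545 and 0.0449 CPM (11, 1 and 1 counts) against 8.65, 1.27 and 2.0 in vehicle (log2 change -4.42, SE 1.2, adjusted p = 0.248). By DESeq2 Ngp passed (log2 change -4.50, adjusted p = 0.00497), and by limma-voom it did not (adjusted p = 0.251). Elane had 6, 4 and 3 counts against 26, 10 and 11 (log2 change -1.81, SE 0.48, adjusted p = 0.248). For both granule genes every low-dose library was below every vehicle library, as was so for 7.36% of all genes. The hepatocyte score was 4.43 to 7.18 at the low dose and 7.73 to 8.15 in vehicle, also without overlap, and with that score in the fit the log2 change was -1.52 for Elane, -4.59 for Ngp and -0.99 for S100a8, and 2 members in place of 5 had an unadjusted p under 0.05. Carcinoma and epithelium markers were negative in 7 of 7 (median log2 change -1.36) and T cell markers positive in 6 of 6 (median 0.58), and their part was not tested.

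S100a8 had 23.3, 15.0 and 5.79 CPM against 40.3, 19.6 and 68.3 (log2 change -1.54, SE 0.53, adjusted p = 0.306), with replicate 1 inside the vehicle range. S100a9 had 51.6, 20.0 and 13.8 CPM against 68.1, 21.6 and 131 (log2 change -1.37, SE 0.63, adjusted p = 0.424). The highest vehicle values of both genes, 68.3 and 131 CPM, came from vehicle replicate 3, so their sizes lean on that library too. The chemokine values rested on vehicle replicate 3. Cxcl2 had 7.15, 1.2 and 2.65 CPM (log2 change -2.53, SE 1.14, adjusted p = 0.416), and Cxcl3 had 19, 1 and 3 counts against 8, 1 and 217 (log2 change -3.39, SE 1.48, adjusted p = 0.397). Without that vehicle library the log2 change was -0.02 for Cxcl2, 0.67 for Cxcl3, 0.52 for Cxcl1, 0.71 for Cxcl5 and 0.37 for Cxcr2. With it the last 3 had -0.74, -0.40 and -1.12, and Lcn2 had -1.46.

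The anti-PD1 antibody alone, set against the same vehicle libraries, also gave 10 negative values of 10, with a median log2 change of -1.39 beside -0.060 over all genes. Of these, 4 turned positive without vehicle replicate 3, at 0.67 for Cxcl1, 0.55 for Cxcl3, 0.46 for Cxcl5 and 0.17 for Cxcr2. No member passed, where 0% of all genes did, and 5 of 10 had an unadjusted p under 0.05, beside 13.7% of all genes (8.78% with lower values). Elane had 2 counts in each of the 3 libraries against 26, 10 and 11 in vehicle, a ratio of 0.137 with a 95% exact interval of 0.0478 to 0.321 for counting error. Its log2 change was -2.77 (SE 0.53, adjusted p = 0.249), and by DESeq2 it passed (adjusted p = 0.0253), while by limma-voom it did not (adjusted p = 0.272). Ngp had 0.146, 0.775 and 0.868 CPM (log2 change -2.73, SE 1.08, adjusted p = 0.306). S100a8 had 14.6, 12.6 and 19.4 CPM (log2 change -1.46, SE 0.53, adjusted p = 0.285). For these 3 genes all treated libraries were below all vehicle libraries, as was so for 9.2% of all genes, although the highest S100a8 value of 19.4 CPM was close to the lowest vehicle value of 19.6. The hepatocyte score was 4.16 to 5.86, below the vehicle range, and with that score in the fit the log2 change was -2.31 for Elane, -2.98 for Ngp and -0.50 for S100a8 (adjusted p = 0.833 for S100a8), and 1 member in place of 5 had an unadjusted p under 0.05. Cxcl1 turned to 0.23 in that fit. T cell markers were negative in 6 of 6 (median log2 change -0.70), and their part was not tested.

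The chemokines overlapped vehicle with the antibody as well. Cxcl2 had 0.437, 2.52 and 4.39 CPM (log2 change -3.12, SE 1.17, adjusted p = 0.289) and Cxcl3 4, 3 and 11 counts (log2 change -3.51, SE 1.5, adjusted p = 0.336). Without vehicle replicate 3 these were -0.61 and 0.55. Log2 changes of the other members were -0.59 for Cxcl1, -0.65 for Cxcl5, -1.32 for Cxcr2, -1.27 for S100a9 and -1.24 for Lcn2. With the hepatocyte score in the fit S100a9 had -0.33 and Cxcr2 -0.48, while Cxcl5 (-0.64) and Lcn2 (-1.25) kept their size.

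The combination shared the same vehicle libraries. Of the members 0 passed, where 0% of all genes did, and 0 of 10 had an unadjusted p under 0.05, beside 8.2% of all genes. By limma-voom both counts were 0 as well, and by DESeq2 0 passed and 3 had an unadjusted p under 0.05. Elane had 14, 14 and 8 counts (log2 change -0.49, SE 0.44, adjusted p = 0.784) and Ngp 30, 13 and 122 counts (log2 change -0.78, SE 0.99, adjusted p = 0.851). Both overlapped vehicle, and the hepatocyte score was 6.25 to 9.23. T cell markers were positive in 6 of 6 (median log2 change 1.18, 2 at an unadjusted p under 0.05), and their part was not tested. Cxcl5 was even across the group, with 42.7, 39.9 and 48.5 CPM against 29.6, 8.17 and 84.3 in vehicle (log2 change 0.10, SE 0.72, adjusted p = 0.982). Log2 changes of the rest were -0.26 for Cxcl1, -2.30 for Cxcl2, -2.84 for Cxcl3, -0.03 for Cxcr2, -1.11 for S100a8, -0.71 for S100a9 and -0.47 for Lcn2. The signs of Cxcl1 and Cxcr2 were not settled: in mean log2 CPM the combination was higher, at 4.35 against 4.08 and 2.79 against 1.95, with 3 of 3 libraries above the vehicle mean for each, and limma-voom gave 0.25 and 0.83. Without vehicle replicate 3 Cxcl1 had 1.0, Cxcl2 0.21, Cxcl3 1.22 and Cxcr2 1.46. Whether the combination differed from the antibody alone was not tested.

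**Figure D3:**
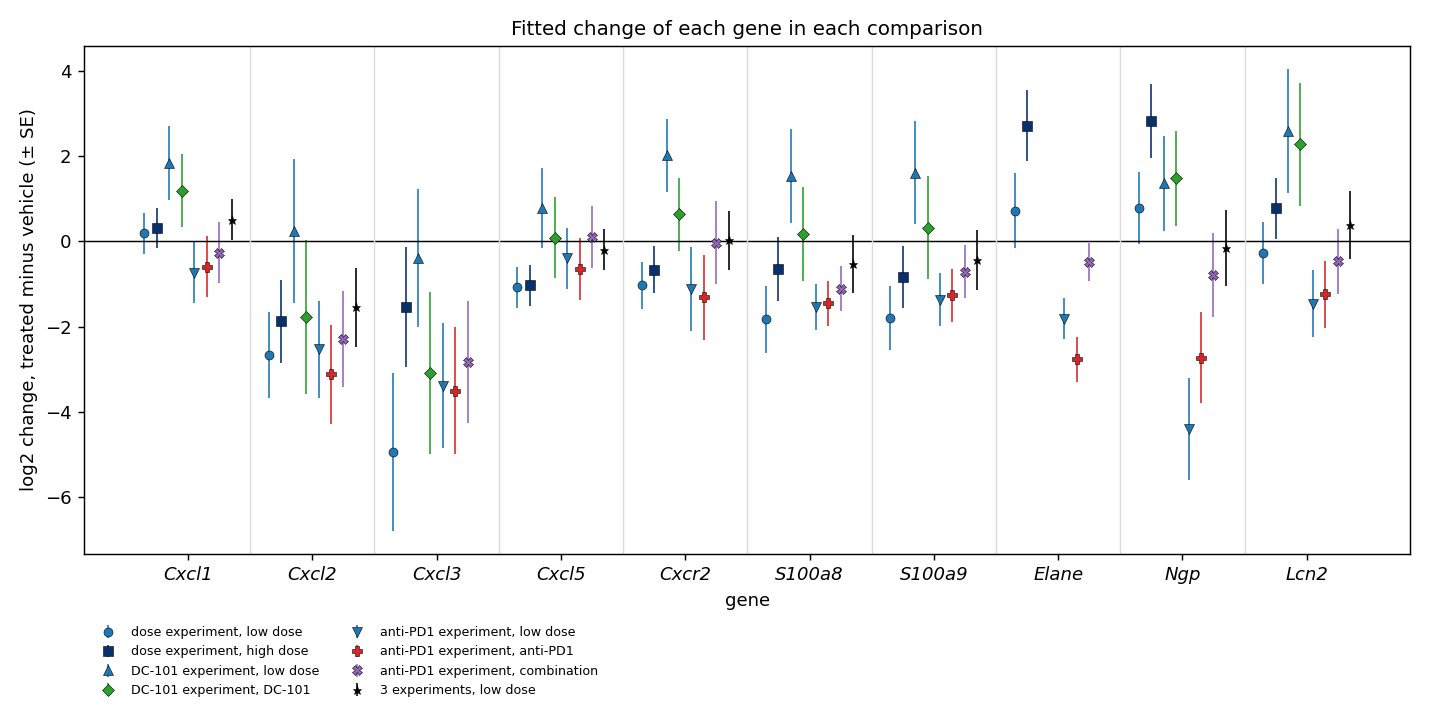
Fitted log2 change of each gene, treated minus vehicle (y axis, with SE bars), by gene (x axis), in the 7 comparisons within experiments and in the low dose over 3 experiments. Marker shape and color stand for the comparison. Ngp runs from -4.42 (low dose, anti-PD1 experiment) to 2.83 (high dose), and the low-dose values of the DC-101 experiment lie above those of the other experiments for all genes tested there.

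Over the 3 experiments together, 9 low-dose libraries were compared with 11 vehicle libraries, with the experiment as a term. No member of the 8 tested passed, where 1.77% of 15562 genes did, and 0 had an unadjusted p under 0.05, beside 16% of all genes. By limma-voom both counts were 0, and by DESeq2 0 passed and 1 had an unadjusted p under 0.05. Log2 changes ran from -1.55 for Cxcl2 (SE 0.93, adjusted p = 0.439) to 0.51 for Cxcl1 (SE 0.48, adjusted p = 0.661), with a median of -0.17. Low-dose libraries were above the vehicle mean of their own experiment in 6 of 9 cases for Cxcl1 and in 2 of 9 for Cxcl2, S100a8 and S100a9. Cxcl3 and Elane were too low to test in this set of libraries.

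Whether the low-dose change differed between experiments was tested by the interaction of experiment and treatment. No member passed, where 0% of all genes did, and 4 of 8 had an unadjusted p under 0.05, beside 9.52% of all genes. These were Ngp (adjusted p = 0.424), S100a8 (adjusted p = 0.489), Lcn2 (adjusted p = 0.520) and S100a9 (adjusted p = 0.520). By DESeq2 and limma-voom 0 members passed, with 6 and 4 of 8 at an unadjusted p under 0.05. With the hepatocyte score in the fit this count was 1 of 8, beside 600 of 15562 genes. With a replicate block it was 2 of 8, beside 1729 of 15562 genes. The labels give each experiment its own batch, and other differences between them cannot be told apart from a difference in response.

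Across libraries several of the 10 genes varied together. Levels were taken as log2 CPM minus the mean of the experiment over the 32 libraries of all groups, and p-values came from 100000 permutations of libraries within experiments, adjusted over the 45 pairs. All 21 pairs among the 4 chemokines, Cxcr2, S100a8 and S100a9 passed, with r from 0.64 to 0.97, and from 0.65 to 0.96 without the 2 libraries farthest from the median. For each pair of members these 2 libraries were taken on the gene named first in the opening list, so they can differ between pairs. Within experiments, always in the order dose, DC-101, anti-PD1, r was 0.21 to 0.99, 0.67 to 0.98 and 0.39 to 0.93. S100a8 and S100a9, whose proteins form a dimer, had r = 0.97 and rho = 0.94 (permutation p = 1e-05 for both, the smallest these permutations can give, adjusted p = 3.46e-05 and 3.75e-05). Within experiments their r was 0.99, 0.98 and 0.93. S100a9 exceeded S100a8 by a median of 1.04 in log2 CPM, with an SD of 0.32 over the libraries. Cxcl2 and Cxcl3 had r = 0.90 and rho = 0.86 (permutation p = 1e-05 for both), and 0.92, 0.96 and 0.82 within experiments.

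**Figure D4:**
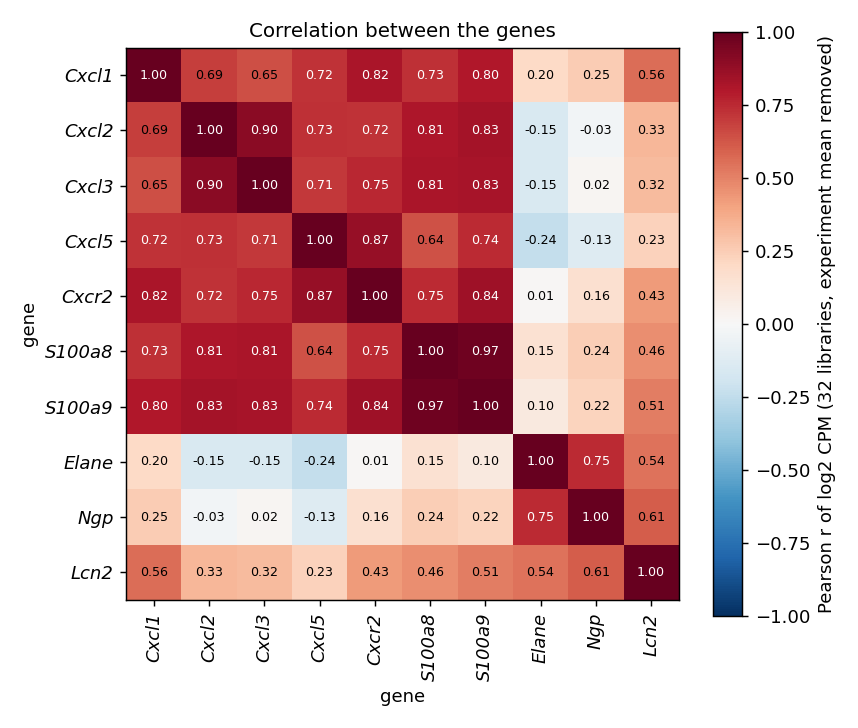
Pearson r between the 10 genes (both axes) over 32 libraries, from log2 CPM with the experiment mean removed, on a color scale from -1 to 1. The 4 chemokines, Cxcr2, S100a8 and S100a9 have r from 0.64 to 0.97 with each other, and Elane and Ngp, with r = 0.75, have r from -0.24 to 0.25 with those 7 genes.

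Elane and Ngp also varied with each other. Their r was 0.75 and rho 0.72 (permutation p = 1e-05 for both, adjusted p = 3.46e-05 and 3.75e-05), with 0.91, 0.75 and 0.66 within experiments and 0.69 without the 2 farthest libraries. None of the 14 pairs of Elane or Ngp with the 7 genes above passed, with r from -0.24 to 0.25. Their range differed between experiments, at -0.76 to 0.45, -0.56 to 0.29 and, all positive, 0.20 to 0.70. Without the 2 farthest libraries it was -0.10 to 0.51, and Ngp then passed with S100a8 (r = 0.51, permutation adjusted p = 0.00558) and with S100a9 (r = 0.48, permutation adjusted p = 0.00883). Lcn2 had r = 0.61 with Ngp (rho = 0.69, permutation p = 0.00014 and 1e-04, adjusted p = 3e-04 and 0.00025) and r = 0.54 with Elane (rho = 0.68, permutation p = 0.00229 and 6e-05, adjusted p = 0.00429 and 0.000169). Within experiments these were 0.34, 0.78 and 0.68 with Ngp and 0.58, 0.64 and 0.43 with Elane, and without the 2 farthest libraries 0.64 and 0.54. With the 7 genes Lcn2 had r from 0.23 to 0.56, and 4 of 7 pairs passed. The highest was that with Cxcl1 (rho = 0.48, permutation p = 0.0057 and 0.0124, adjusted p = 0.0103 and 0.0224), which rested on the 2 farthest libraries, since r was 0.39 without them and no longer passed.

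Elane, Ngp and Lcn2 varied with the hepatocyte score. Of 20 relations of members with the hepatocyte and macrophage scores, 3 passed for r. Elane had r = 0.78 and rho = 0.79 with the hepatocyte score (permutation p = 1e-05 for both, adjusted p = 2e-04 and 1e-04), and 0.88, 0.78 and 0.81 within experiments. Lcn2 had r = 0.75 and rho = 0.82 (permutation p = 3e-05 and 1e-05, adjusted p = 3e-04 and 1e-04), and 0.59, 0.94 and 0.25 within experiments. Ngp had r = 0.61 and rho = 0.64 (permutation p = 0.00021 and 0.00017, adjusted p = 0.0014 and 0.00113), and 0.68, 0.75 and 0.52 within experiments. Without the 2 farthest libraries r was 0.78, 0.68 and 0.57 for Elane, Lcn2 and Ngp. S100a8 had r = 0.36 (rho = 0.37, permutation p = 0.104 and 0.0679, adjusted p = 0.189 and 0.113), and 0.27, 0.31 and 0.67 within experiments. In the anti-PD1 experiment its r was thus above those of Lcn2 and Ngp. All 10 values of r with the macrophage score were negative, from -0.37 to -0.13, and none passed. By rho that score passed for Cxcl3 (-0.56, permutation p = 0.00156, adjusted p = 0.0078), Cxcl1 (-0.50, permutation p = 0.0023, adjusted p = 0.0092), Cxcr2 (-0.48, permutation p = 0.00334, adjusted p = 0.0111) and S100a9 (-0.41, permutation p = 0.015, adjusted p = 0.0429).

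**Figure D5:**
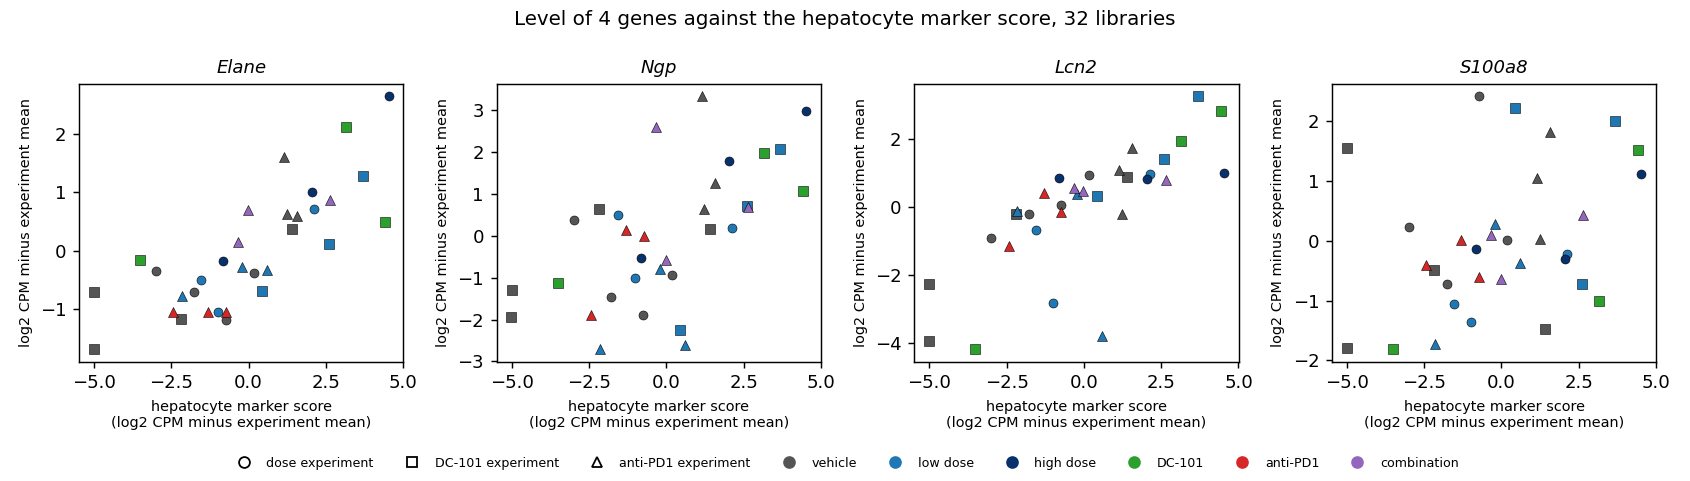
Level of Elane, Ngp, Lcn2 and S100a8 (y axis, log2 CPM minus the experiment mean) against the hepatocyte marker score (x axis, mean log2 CPM minus the experiment mean) in 32 libraries. Marker shape gives the experiment and color the group. The points of Elane (r = 0.78) and Lcn2 (r = 0.75) are higher at higher scores, while those of S100a8 (r = 0.36) scatter more. In the anti-PD1 experiment alone r was 0.67 for S100a8 and 0.25 for Lcn2.

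By highest r over the 32 libraries among 15420 other genes, S100a9 was most like Asprv1 (0.94), Il1f9 (0.91) and Hdc (0.89), and S100a8 like Asprv1 (0.91), Stfa2l1 (0.89) and Il1r2 (0.89). For Cxcr2 the nearest were Il1f9 (0.91), Hcar2 (0.87) and Trim30b (0.87), and for Cxcl1 they were Il1f9 (0.84), Hdc (0.79) and Slc39a14 (0.79). Cxcl2 had Gm5483 (0.87), Asprv1 (0.86) and Il1f9 (0.85), Cxcl3 had Gm5483 (0.87), Il1f9 (0.85) and Hdc (0.83), and Cxcl5 had Hcar2 (0.86), Acod1 (0.85) and Gm39459 (0.81). Ngp was most like Camp (0.90) and Ltf (0.87), which encode the granule proteins cathelicidin and lactoferrin, and then Bmp10 (0.77). Elane was most like Erbb3 (0.86), Fmo4 (0.85) and Slc17a1 (0.85), and Lcn2 like Alpl (0.93), Gata4 (0.92) and Hp (0.91), the gene of the plasma protein haptoglobin. These libraries share treatment and tissue makeup, and the values are a description.

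Wider lists of neutrophil genes had calls mainly at the high dose. Of 24 further genes of neutrophil chemotaxis and mobilization, 19 were tested there, and 5 fell and 1 rose, where 15.6% of all genes passed, with a median log2 change of -0.28 beside 0.022 over all genes. Those with the largest changes were Itgam, the integrin chain CD11b (log2 change -2.80, SE 0.36, adjusted p = 0.0143), Il1b, an inflammatory cytokine (-2.75, SE 0.36, adjusted p = 0.0143), Fpr2, a formyl peptide receptor (-1.99, SE 0.35, adjusted p = 0.0240), and Cxcl12, the ligand of Cxcr4, which rose (1.39, SE 0.29, adjusted p = 0.0324). Of 10 other granule genes tested, 2 fell, Ncf1 (-1.42, adjusted p = 0.0368) and Cybb (-1.33, adjusted p = 0.0342), both of the NADPH oxidase. Of 13 neutrophil identity genes tested, 1 fell, Trem1 (-3.83, SE 0.42, adjusted p = 0.0109). Macrophages are known to express several of these genes, and 7 of 10 macrophage markers fell at the high dose, with scores of 5.12 to 6.46 against 6.31 to 6.92 in vehicle. The part of macrophages in these calls was not tested. Of all genes, 2582 passed at the high dose in this fit, and 156 did with the hepatocyte score in the fit, 4 with the 2 groups alone, 1 with a replicate block and 15 to 7030 with 1 library left out. At most 1 of the list calls can therefore hold with the block and at most 4 with the 2 groups alone.

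Among the other comparisons, a single gene of these 3 lists passed in each of 2. Ltb4r1, the leukotriene B4 receptor, rose at the low dose of the DC-101 experiment (1 of 20 chemotaxis genes tested, log2 change 1.89, SE 0.20, adjusted p = 0.0229), where 0.0248% of all genes passed. In that comparison 0 genes passed with the hepatocyte score in the fit, with a replicate block or with any 1 library left out. Fpr2 rose at the low dose over 3 experiments (1 of 19, 1.14, SE 0.25, adjusted p = 0.0272), where 1.77% of all genes passed. In the DC-101 experiment the low-dose median log2 change was 0.82 for the chemotaxis genes, 1.30 for the granule genes and 1.43 for the identity genes, beside 0.0092 over all genes. In the dose experiment these low-dose medians were 0.45, 0.45 and -0.48, with Fpr2 (1.21, SE 0.32, adjusted p = 0.738) at the smallest p. In the anti-PD1 experiment the median log2 change at the low dose was -0.34 for the chemotaxis genes, -1.75 for the granule genes and -1.41 for the identity genes, beside 0.035 over all genes. The smallest p values there were those of Retnlg, a resistin-like gene of neutrophils (-3.92, SE 1.01, adjusted p = 0.248), Mmp8, the neutrophil collagenase (-3.16, SE 0.84, adjusted p = 0.248), and Camp (-4.0, SE 1.08, adjusted p = 0.248). With the antibody alone Selp, the gene of P-selectin, had -2.70 (SE 0.59, adjusted p = 0.249). Padi4, which citrullinates histones in neutrophils, had -5.55 with the antibody (adjusted p = 0.249) and -5.98 with the combination (adjusted p = 0.475), values set beside 1269 counts in vehicle replicate 3 and a median of 9 over all libraries. With DC-101 the smallest were Trem1 (1.14, SE 0.27, adjusted p = 0.309) and Mpo, myeloperoxidase (2.93, SE 0.74, adjusted p = 0.309).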

How the data were processed

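Per the labels RNA came from snap-frozen tumor, whereas the study's methods speak of fresh samples. Per the labels and the study's methods, the authors trimmed adapters with cutadapt 2.4, aligned read pairs to GRCm38 with STAR 2.7.2a and deposited raw counts per gene, in 1 table per experiment. The strand column counted is not given in the sources used here. Gene IDs were matched to symbols for 99.93% of 54446 genes, and gene positions came from a GRCm38 annotation. The 10 members and the gene lists were chosen with earlier results of these data known.

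Within each experiment, counts were filtered with filterByExpr (minimum count 10, minimum total 15), scaled by TMM and fitted with all groups of the experiment by the edgeR quasi-likelihood F-test (edgeR 4.0.16, R 4.3.3). Each treatment was compared with the vehicle libraries of its own experiment, two-sided, with Benjamini-Hochberg adjustment over all genes tested and a threshold of 0.05. The low dose was also fitted over 3 experiments with the experiment as a term. CPM used TMM-scaled library sizes within each experiment, and log2 CPM a prior count of 2. Precision follows from 16.77 to 27.69 M counts per library, and intervals cover counting error only. Alternatives were DESeq2 1.42.0, limma-voom (limma 3.58.1), RLE scaling, no filter, the 2 groups alone, a replicate block, the hepatocyte score as a covariate and leaving out each library or experiment. All members are named in each comparison. From the lists, genes past the threshold are named (the 4 with the largest changes where more passed), or up to 2 with the smallest p where none did, and for each member the 3 genes with the highest r. The list genes named are those this rule gives, except 1 that is not reported here. The fits were tested on simulated data with 200 genes changed by 2 in log2. Of these, 64 to 72.5% were recovered in the dose and DC-101 comparisons and 45 to 53% in the anti-PD1 comparisons. The low dose over 3 experiments recovered 90.5% and its change between experiments 39.5%. False calls were 2.47 to 8.16% of all calls.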

Additional observations from a re-analysis of the deposited data

Results flagged for a closer look

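For 3 genes the low-dose libraries of 2 experiments moved in opposite directions, every library of each lying on its own side of the vehicle mean of log2 CPM. Cxcr2 had a mean difference in log2 CPM of -0.77 in the dose experiment and 1.80 in the DC-101 experiment, and the first minus the second was -2.58 (edgeR F-test of the change over 3 experiments, adjusted p = 0.530). In the dose experiment the vehicle mean of Cxcr2 was raised by replicate 2 (8.74 CPM). The highest low-dose library, at 2.59 CPM, was above the vehicle median of 2.51. For Lcn2 the DC-101 experiment gave 3.04 and the anti-PD1 experiment -2.05, a difference of 5.09 (adjusted p = 0.520 by the same test). The hepatocyte score at the low dose was 5.62 to 8.86 against 0.17 to 6.58 in vehicle in the first and 4.43 to 7.18 against 7.73 to 8.15 in the second. With it in the fit the low-dose log2 changes of Lcn2 were -1.02 and -1.47. Elane had 1.03 and -1.40 in these experiments, a difference of 2.43, which was not tested. Its counts were near 0, and on CPM its lowest low-dose library in the DC-101 experiment (2 counts, 0.091 CPM) was below the vehicle mean of 0.105. For the 10 genes in the 2 vehicle groups of 4 libraries (20 cases), 0 had a library past Dixon's limit on log2 CPM. On CPM, a scale tried after seeing the data, 6 cases were past it. Chance passes about 1 in 20 separate groups of normally spread values, and these cases are not separate, since all 6 come from 2 libraries, so they are given as a description. Vehicle replicate 1 of the DC-101 experiment was past it for Cxcl2 (ratio 0.957), Cxcl3 (0.913) and S100a8 (0.840), and vehicle replicate 2 of the dose experiment for Cxcr2 (0.885), S100a8 (0.880) and S100a9 (0.910).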

How the results depend on the processing

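Of 543 member values under settings other than leaving out 1 library, 508 kept their direction, 35 reversed and 4 were past the threshold. The count of members past the threshold, 0 in each comparison, became 2 at the high dose, 1 at the low dose of the anti-PD1 experiment and 1 with anti-PD1 by DESeq2, and was 0 to 3 at the high dose when 1 library was left out. The cause was not tested. For genes near 0 counts, depth limits the values. Counts of all genes past the threshold also moved: at the high dose from 2582 to 5275 by DESeq2, 1332 by limma-voom, 416 with no filter, 156 with the hepatocyte covariate, 4 with the 2 groups alone and 15 to 7030 with 1 library left out, and by DESeq2 to 85, 1097, 373, 425, 614 and 150 in the other comparisons within experiments, in the order of the report, 892 for the low dose over 3 experiments and 100 for its change between experiments. At the low dose the dose experiment had 3 with the hepatocyte covariate and 75 with the 2 groups alone, the DC-101 experiment (4) had 12 with no filter, 0 with that covariate, 1 with the 2 groups alone and 0 with 1 library left out, and the anti-PD1 experiment had 10 with no filter and 9 with that covariate, beside 1 and 7 with the combination. Over 3 experiments the 276 genes became 153 with no filter, 17 when the DC-101 experiment was left out, 63 when the dose experiment was, and 158 to 313 with 1 library left out, and the change between experiments had 0 to 2.

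Replicate numbers gave no clear pairing of the libraries. Same-numbered libraries had r over 0.1 in 2 of 9 (dose), 4 of 9 (DC-101) and 6 of 18 (anti-PD1) pairs. In the same order, 4 of 18, 7 of 18 and 16 of 36 libraries correlated best with their own number. The highest r of a pair was 0.56, 0.67 and 0.62, and so few pairs cannot exclude pairing. With a replicate block 0 members passed in each comparison, and genes past the threshold numbered 1 at the high dose, 0 at the low dose of the DC-101 experiment and 178 over 3 experiments. Under the block, values reversed with DC-101 for Cxcl5 (-0.43), S100a8 (-0.78) and S100a9 (-0.85), with the combination for Cxcr2 (0.23), and over 3 experiments for Cxcr2 (-0.081) and Lcn2 (-0.18).

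With the hepatocyte score as a covariate, log2 changes reversed at the low dose of the dose experiment for Cxcl1 (-0.21) and Elane (-0.13), at the high dose for Cxcl1 (-0.41), at the low dose of the DC-101 experiment for Cxcl3 (1.33), Ngp (-1.08) and Lcn2 (-1.02), with DC-101 for S100a8 (-0.075), S100a9 (-0.029), Ngp (-0.61) and Lcn2 (-1.78), with anti-PD1 for Cxcl1 (0.23), with the combination for Cxcr2 (0.16), and over 3 experiments for Cxcr2 (-0.27) and Lcn2 (-0.36). By limma-voom they reversed at the high dose for Cxcl3 (0.68), at the low dose of the DC-101 experiment for Cxcl3 (1.11), with DC-101 for Cxcl5 (-0.0080), and with the combination for Cxcl1 (0.25) and Cxcr2 (0.83), and with no filter for Cxcr2 with the combination (0.029). The low dose over 3 experiments reversed without the dose experiment for Cxcl5 (0.22), S100a8 (0.16) and S100a9 (0.28), without the DC-101 experiment for Cxcl1 (-0.23), Cxcr2 (-1.07) and Lcn2 (-0.81), and without the anti-PD1 experiment for S100a8 (0.021), S100a9 (0.081) and Ngp (1.08).

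With 1 library left out, 544 of 606 member values kept their direction, 62 reversed and 3 passed, and a group left with 1 fewer library was assumed to vary like the others. At the low dose of the dose experiment the range was Cxcl1 -0.44 to 0.61, Elane -0.25 to 1.15 and Lcn2 -1.50 to 0.24. At the high dose the range was Cxcl3 -1.97 to 0.50, Cxcr2 -0.90 to 0.082, S100a8 -1.22 to 0.47 and S100a9 -1.39 to 0.19. At the low dose of the DC-101 experiment the range was Cxcl2 -1.06 to 3.28 and Cxcl3 -1.72 to 2.4. With DC-101 the range was Cxcl1 -0.28 to 1.79, Cxcl2 -4.73 to 1.25, Cxcl5 -0.83 to 0.92, Cxcr2 -0.32 to 1.13, S100a8 -1.47 to 1.43 and S100a9 -1.71 to 1.55. At the low dose of the anti-PD1 experiment the range was Cxcl1 -1.20 to 0.52, Cxcl3 -5.03 to 0.67, Cxcl5 -1.12 to 0.71 and Cxcr2 -2.63 to 0.37. With anti-PD1 the range was Cxcl1 -1.41 to 0.67, Cxcl3 -4.25 to 0.55, Cxcl5 -1.13 to 0.46 and Cxcr2 -1.85 to 0.17. With the combination the range was Cxcl1 -0.72 to 1.0, Cxcl2 -2.87 to 0.21, Cxcl3 -3.52 to 1.22, Cxcl5 -0.38 to 1.21, Cxcr2 -0.57 to 1.46, S100a9 -1.14 to 0.0053, Ngp -2.14 to 0.47 and Lcn2 -0.83 to 0.027. At the low dose over 3 experiments the range was Cxcl5 -0.45 to 0.12, Cxcr2 -0.38 to 0.55, Ngp -0.77 to 0.23 and Lcn2 -0.091 to 0.68. Without the 2 farthest libraries 30 pairs of members passed in place of 28: r of Cxcl1 with Lcn2 no longer passed (0.39), and those of Cxcl3 with Lcn2 (0.43), S100a8 with Ngp (0.51) and S100a9 with Ngp (0.48) did.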
